A study of Mus musculus with 24 samples.

Results

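The 39 genes described here encode lysosomal hydrolases, proteins of the lysosomal membrane, subunits of the proton pump and the transcription factor Tfeb. They were picked by gene symbol from a list, and all 39 were found among the 54429 symbols of the deposited tables. By role they are 10 cathepsins and other peptidases, 10 genes that are glycosidases or the sulphatase Sgsh, 7 genes of lipid handling, 5 membrane proteins, Tfeb, and 6 genes of the proton pump. Expression was measured by RNA-seq in macrophages grown from the bone marrow of C57BL/6N mice that were knockout (KO) or wild type (WT) for MK2, a kinase activated by p38 MAP kinase and encoded by Mapkapk2. The marrow was cultured in M-CSF (10 ng/ml) until cells were replated on day 7. Cells then received 10 ng/ml of murine IL-4 over 24 h, called M2, or stayed unstimulated, called M0, with 6 libraries in each of the groups KO M2, KO M0, WT M2 and WT M0.

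Lysosomes are acidic organelles in which macrophages break down what they take up by phagocytosis and what they deliver by autophagy. The vacuolar proton pump acidifies the lumen, soluble hydrolases reach it along the mannose 6-phosphate route, and heavily glycosylated membrane proteins such as Lamp1 and Lamp2 line the membrane. Tfeb and its relatives Tfe3, Mitf and Tfec bind E-box sequences in the promoters of many lysosomal genes, the so-called CLEAR element, whose core is CACGTG. IL-4 acts on macrophages through STAT6 and gives the alternatively activated state that the labels call M2.

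Library totals ran from 7893809 to 13492507 counts, and 12797 genes passed the filter on low counts, including all 39 lysosomal genes. In CPM, the count scaled to library size after TMM normalization, Mapkapk2 averaged 54.0 ± 4.38 CPM in KO M2 and 58.8 ± 2.88 CPM in KO M0, against 120 ± 9.93 CPM in WT M2 and 119 ± 13.9 CPM in WT M0 (SD, n = 6 each). Its groups did not overlap between genotypes. The labels name neither the deleted stretch of Mapkapk2 nor the animals behind the 6 libraries of a group. P-values therefore reflect only how far these libraries vary, which may be technical variation. All 10 macrophage markers had counts in every group. Cx3cr1 was near the floor, with 12 counts in KO M2, 78 in KO M0, 10 in WT M2 and 63 in WT M0. Its lowest library was at 0 in KO M2 and in WT M2. Their sum, as CPM without TMM scaling, averaged 13082 CPM (range 11664 to 13735) in KO M2 and 14598 CPM (range 12867 to 15506) in KO M0, and 15461 CPM (range 14199 to 18001) in WT M2 and 16673 CPM (range 14743 to 19720) in WT M0. With IL-4, every KO library thus lay below every WT library in this sum. Most of the sum was Lyz2, which with TMM scaling averaged 8088 CPM in KO M2 and 8678 CPM in KO M0. It averaged 10171 CPM in WT M2 and 11334 CPM in WT M0. The sum also holds Cd68, which is among the 39. With IL-4, the log2 fold change of KO over WT was above 0 for 5 of the 10 markers, with 1 called higher and 2 lower. Of the alternative activation list, 18 of 21 tested genes were higher with IL-4 in KO and 18 of 21 in WT. The shares over all genes were 12.2% in KO and 8.49% in WT. Between genotypes with IL-4, 4 of the 21 were higher in KO and 0 lower, beside 1.51% and 3.09% of all genes. The difference of IL-4 responses, KO minus WT, was called for 0 of the 21 and was above 0 for 18 of them. Markers of stromal cells and fibroblasts, and some of osteoclasts and macrophages, differed with genotype, as given beside the genotype comparison. In bulk libraries, fewer cells of a type and less RNA per cell cannot be told apart. The numbers of 3 libraries in the labels lie apart from the runs of the other 21, and these 3 are WT M0 replicate 3, WT M2 replicate 2 and KO M2 replicate 2. By Dixon's criterion, explained at the end, WT M2 replicate 2 stood apart from its group for 10 of the 39 genes. Counts are therefore also given below without these 3 libraries.

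Upstream sequences were read for 33 of the 39 genes, from RefSeq on build GRCm38.p6, as the 250 bases before each annotated start. Asah1, Atp6v1b2, Atp6v1h, Ctsb, Ctsh and Npc1 had no entry that was used. The core CACGTG, searched on both strands, occurred in 12 of the 33 genes, or 36.4%. Over all 27025 genes of the table, 1854 had it in the same window, or 6.86%. The longer form TCACGTGA, which contains the core, occurred in 5 of the 33 genes (15.2%) and in 0.907% of all genes. The core was found in 5 of the 13 genes that were higher with IL-4 in both genotypes and in 7 of the other 20. The following 4 stretches are shown because they belong to genes the results turn on. Lamp1 and Psap were higher with IL-4, Sgsh was lower with IL-4, and Lgmn was lower in KO. Capitals mark CACGTG with a flanking T or A where it reads TCACGTG or CACGTGA.
Lamp1, chr8:13158911-13159160, plus strand: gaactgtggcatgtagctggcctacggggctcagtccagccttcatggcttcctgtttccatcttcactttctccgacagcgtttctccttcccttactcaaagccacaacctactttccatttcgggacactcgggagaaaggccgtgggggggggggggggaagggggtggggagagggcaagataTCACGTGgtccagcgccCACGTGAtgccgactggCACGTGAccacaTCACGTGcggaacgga
Psap, chr10:60277378-60277627, plus strand: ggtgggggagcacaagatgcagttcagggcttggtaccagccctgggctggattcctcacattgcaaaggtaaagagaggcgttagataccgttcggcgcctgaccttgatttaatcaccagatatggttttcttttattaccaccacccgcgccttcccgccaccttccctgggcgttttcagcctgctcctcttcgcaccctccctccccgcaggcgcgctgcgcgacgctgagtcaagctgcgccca
Sgsh, chr11:119355511-119355760, minus strand: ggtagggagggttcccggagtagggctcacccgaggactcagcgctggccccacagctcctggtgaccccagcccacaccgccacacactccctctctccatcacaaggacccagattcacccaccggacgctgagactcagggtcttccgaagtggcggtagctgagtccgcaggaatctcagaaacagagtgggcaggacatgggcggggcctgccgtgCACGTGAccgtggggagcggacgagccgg
Lgmn, chr12:102439093-102439342, minus strand: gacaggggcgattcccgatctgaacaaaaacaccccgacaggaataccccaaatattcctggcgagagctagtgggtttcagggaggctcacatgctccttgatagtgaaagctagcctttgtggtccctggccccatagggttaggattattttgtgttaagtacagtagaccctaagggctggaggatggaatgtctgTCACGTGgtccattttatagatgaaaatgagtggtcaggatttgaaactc
Lamp1 had 4 copies of the core, starting 61, 45, 28 and 15 bases before the annotated start. Sgsh had 1 copy starting 29 bases before its start. The last 26 bases of its window lie inside the gene as GENCODE M21 draws it, so that copy crosses the GENCODE start. Lgmn had 1 copy starting 49 bases before a start that lies inside the gene as GENCODE M21 draws it, and none before its other start. Psap, which has 2 annotated starts, had no copy before either. Of all windows of the lysosomal genes that held the core, only that of Lamp1 lay wholly outside its gene as GENCODE M21 draws it. Those of Atp6v1a, Ctsa, Ctsl and Lgmn lay wholly inside. These matches describe letters in a window, and binding was not measured.

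Levels per gene length differed widely among the lysosomal genes. On the GETMM scale, a signal that the authors scaled for gene length and library, Ctsd was the highest gene in KO M0 and in WT M0, and Psap was the highest in KO M2 and in WT M2. Psap, which encodes the precursor of the saposin activator proteins, averaged 16166 ± 1228 GETMM in KO M2 and 10662 ± 1542 GETMM in KO M0, and 16854 ± 1670 GETMM in WT M2 and 11616 ± 1754 GETMM in WT M0 (SD, n = 6 each). Ctsd, the aspartic protease cathepsin D, averaged 14013 ± 1072 GETMM in KO M2 and 12554 ± 1337 GETMM in KO M0, and 14840 ± 1229 GETMM in WT M2 and 13178 ± 2050 GETMM in WT M0. Ctsb, Ctsl and Ctss, 3 cysteine cathepsins, came next. The lowest was Smpd1, acid sphingomyelinase, at 21.1 GETMM in KO M2 and 19.6 GETMM in KO M0, and 22.9 GETMM in WT M2 and 20.6 GETMM in WT M0. Tfeb averaged 64.4 GETMM in KO M2 and 50.1 GETMM in KO M0, and 62.3 GETMM in WT M2 and 48.2 GETMM in WT M0.

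**Figure D1:**
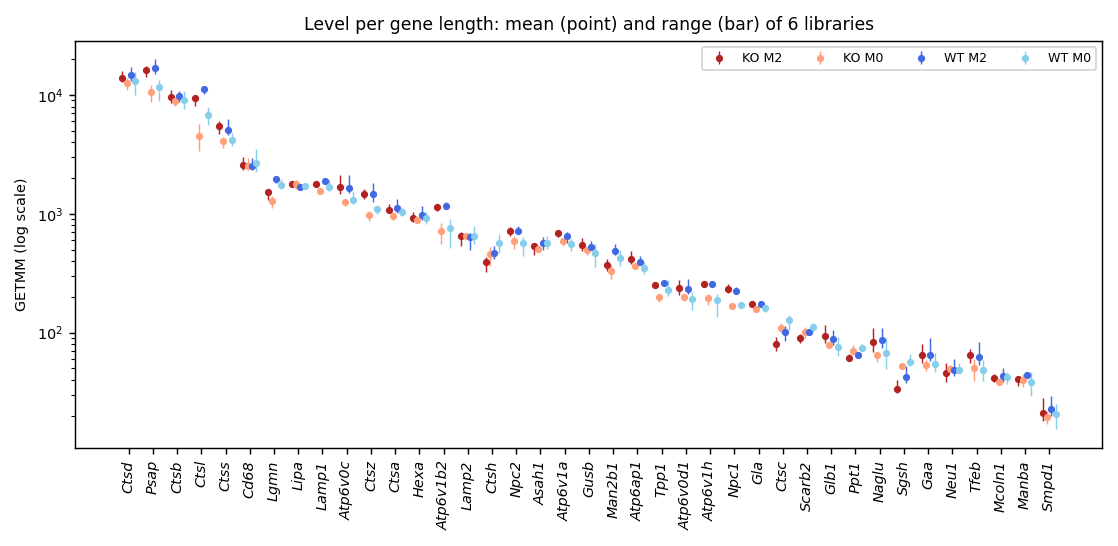
Mean level per gene length (GETMM, log scale) of each of the 39 lysosomal genes in KO M2, KO M0, WT M2 and WT M0; bars run from the lowest to the highest of 6 libraries. Ctsd and Psap lie at the top and Smpd1 lies at the bottom, at 19.6 to 22.9 GETMM.

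Summed over the 39 genes, the lysosomal share of all GETMM was 7.19% ± 0.42 in KO M2 and 6.02% ± 0.67 in KO M0, and 7.90% ± 0.39 in WT M2 and 6.42% ± 0.73 in WT M0 (SD, n = 6 each). Libraries ranged from 6.42% to 7.64% in KO M2 and from 5.23% to 6.77% in KO M0. They ranged from 7.30% to 8.51% in WT M2 and from 5.23% to 7.25% in WT M0. The IL-4 treated and unstimulated libraries thus overlapped in KO, while in WT the lowest treated library lay just above the highest unstimulated one. The 6 pump genes held 0.425% ± 0.0249 in KO M2 and 0.343% ± 0.0314 in KO M0, and 0.437% ± 0.0303 in WT M2 and 0.340% ± 0.0474 in WT M0. The glycosidases and Sgsh together held 0.227% ± 0.0128 in KO M2 and 0.229% ± 0.0140 in KO M0, and 0.255% ± 0.0189 in WT M2 and 0.234% ± 0.0323 in WT M0. These sums are dominated by the few most abundant genes and are given as descriptions.

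**Figure D2:**
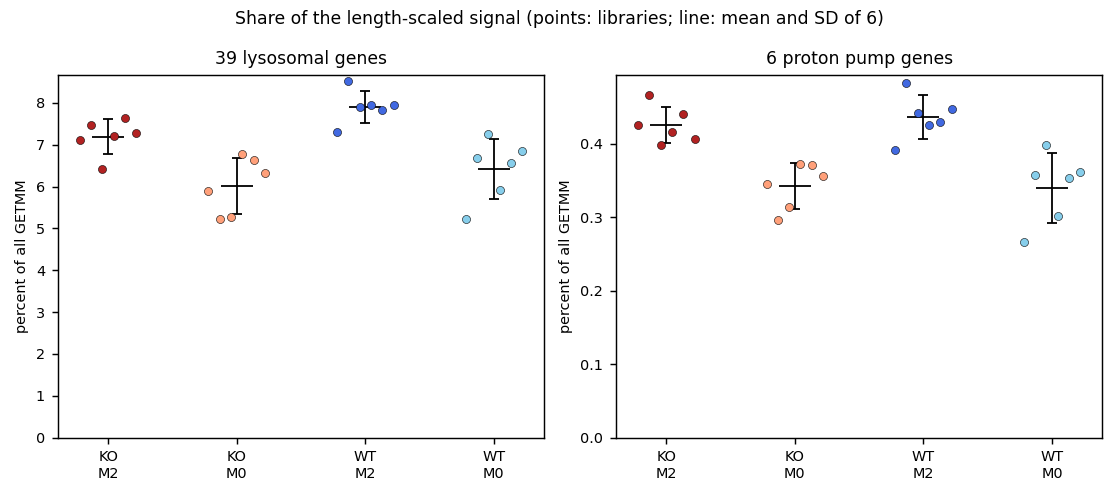
Percent of all GETMM held by the 39 lysosomal genes (left) and by the 6 pump genes (right) in each library; points are libraries, lines are the mean and SD of 6. The means of both sets are higher in M2 than in M0 of the same genotype.

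With IL-4, more of the lysosomal genes were higher than lower in both genotypes. In KO, 21 of the 39 were higher with IL-4, 3 were lower and 15 were not called, with edgeR at a threshold of 0.05 on the adjusted p of its quasi-likelihood test. Of all 12797 genes tested in KO, 12.2% were higher and 11.4% were lower. In WT, 16 of the 39 were higher, 3 were lower and 20 were not called, where 8.49% of all genes were higher and 7.95% were lower. The median log2 fold change of the 39 was 0.19 in KO and 0.17 in WT, beside medians of -0.0038 in KO and -0.016 in WT over all genes tested. Both lists came from 1 fit, with different libraries in each comparison. They shared all 16 genes of the WT list, which were 16 of the 21 in the KO list, and all 3 lower genes. The overlap of such lists over all genes was not counted, so this is given as a description. The largest called change was that of Ctsl in KO, at 2.09-fold, and the smallest was that of Gla in WT, at 1.09-fold.

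**Figure D3:**
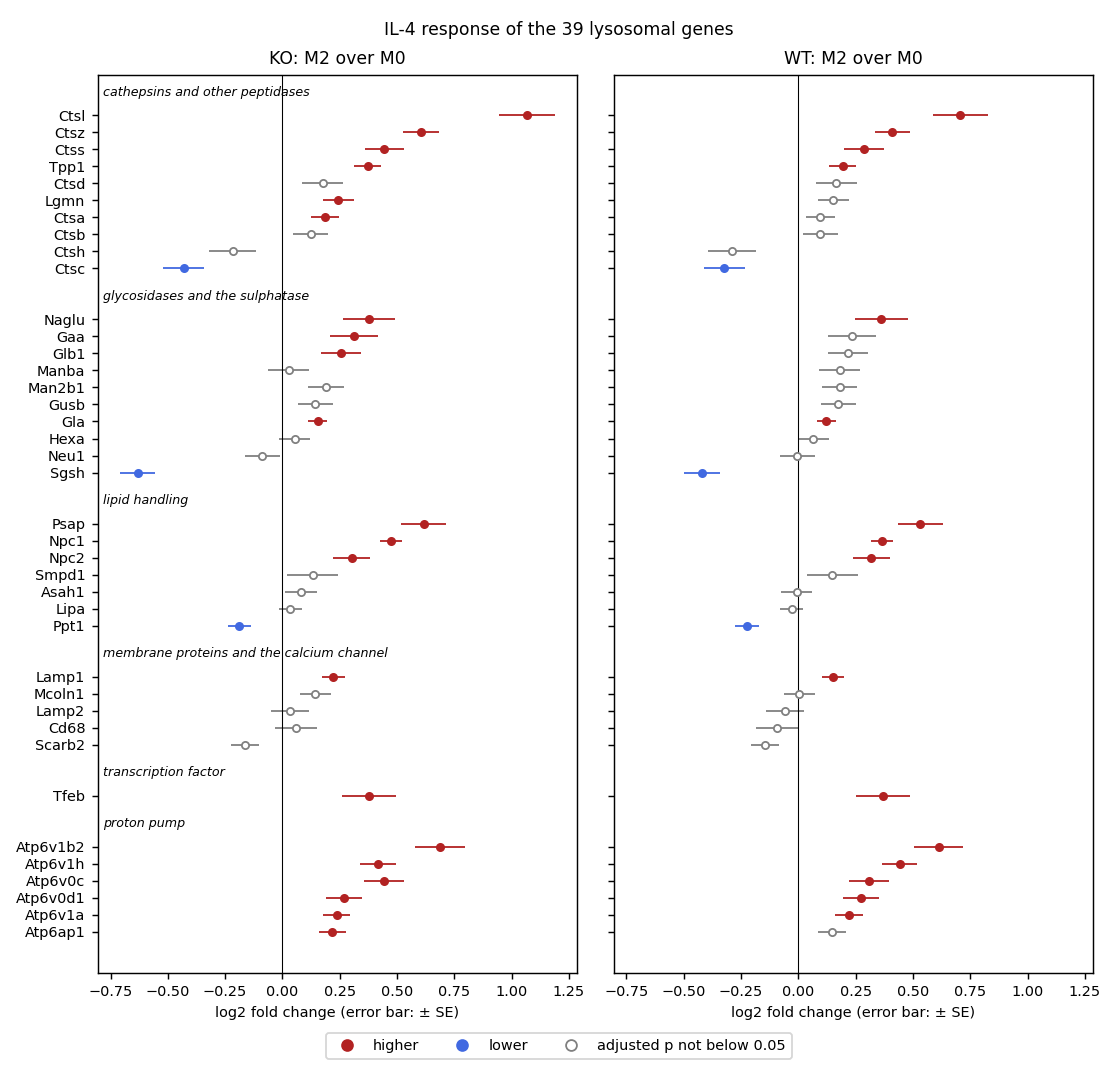
Log2 fold change (± SE) of M2 over M0 for each of the 39 lysosomal genes, in KO (left) and WT (right), grouped by role; filled points passed the test (red higher, blue lower). All 6 pump genes lie to the right of 0 in both genotypes, and Sgsh lies furthest to the left.

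Groups that did not overlap were also counted. With IL-4 in KO, all 6 treated libraries lay above all 6 unstimulated ones for 18 of the 39 genes and below them for 2, where 14.0% of all genes did not overlap in one direction or the other. In WT, 8 genes lay wholly above and 3 wholly below, where 8.16% of all genes did not overlap. Without the 3 libraries numbered apart, 21 were higher and 4 lower in KO, and 15 were higher and 4 lower in WT. Of all 12797 genes, 1676 were then higher and 1635 lower in KO, and 1157 were higher and 1022 lower in WT. Within replicates 1 to 3 alone, 10 were higher and 2 lower in KO, and 6 were higher and 0 lower in WT. Fewer of all 12797 genes were called there too, 794 higher and 675 lower in KO, and 527 higher and 333 lower in WT. Within replicates 4 to 6 alone, 12 were higher and 5 lower in KO, and 15 were higher and 4 lower in WT. Of all genes, 1339 were higher and 1369 lower in KO in that set, and 910 were higher and 769 lower in WT.

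Among the cathepsins and other peptidases, 6 of 10 were higher with IL-4 and 1 was lower in KO, and 4 of 10 were higher and 1 was lower in WT. Ctsl, the cysteine endopeptidase cathepsin L (chr13:64359337-64370890, mm10), had the largest rise of the 39 in both genotypes. Its lowest, median and highest libraries had 4531, 5431 and 5782 CPM in KO M2, against 1913, 2531 and 3275 CPM in KO M0. In WT M2 they had 5779, 6567 and 6864 CPM, against 3228, 3999 and 4571 CPM in WT M0. In both genotypes every treated library lay above every unstimulated one. The log2 fold change was 1.07 ± 0.12 in KO (SE, adjusted p = 2.86e-07) and 0.71 ± 0.12 in WT (adjusted p = 0.000157), in edgeR's quasi-likelihood fit. An antisense gene, Gm47123, shares 26.8% of the exonic length of Ctsl, and its count was at most 0.456% of that of Ctsl in any library.

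Ctsz, a lysosomal carboxypeptidase, rose by a log2 fold change of 0.60 ± 0.08 in KO and 0.41 ± 0.08 in WT, and its groups did not overlap in either genotype. Ctss, cathepsin S, which trims the invariant chain of MHC class II, rose by 0.44 ± 0.09 in KO and 0.29 ± 0.09 in WT. Tpp1, a tripeptidyl peptidase, rose by 0.37 ± 0.06 in KO and 0.19 ± 0.06 in WT. The WT calls of Ctss and Tpp1 depended on single libraries. The Ctss call in WT was lost without WT M0 replicate 5 or WT M2 replicate 1, with adjusted p up to 0.0740. The Tpp1 call in WT was lost without any one of WT M0 replicates 2, 3, 5 and 6 and WT M2 replicates 1, 3 and 6, with adjusted p up to 0.0722. Ctsa, the carboxypeptidase that protects Neu1 and Glb1 in a complex, and Lgmn, the asparaginyl endopeptidase legumain that processes cathepsins, were called in KO, with log2 fold changes of 0.19 and 0.24. In WT their values were 0.10 and 0.15, with adjusted p of 0.312 and 0.126. The Ctsa call in KO was lost without KO M0 replicate 1 or 3 or KO M2 replicate 2, with adjusted p up to 0.0827. Pltp, on the opposite strand, shares 10.5% of the exonic length of Ctsa and had 19.2% to 48.2% of its count, so Ctsa is uncertain where strand was not kept.

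Ctsc moved the other way. It encodes dipeptidyl peptidase I, which activates granule serine proteases (chr7:88278085-88310888). The lowest, median and highest libraries had 73.6, 84.7 and 96.0 CPM in KO M2, against 104, 113 and 122 CPM in KO M0, without overlap. In WT M2 they had 87.5, 111 and 119 CPM, against 107, 138 and 149 CPM in WT M0, with overlap. The change on the log2 scale was -0.43 ± 0.09 in KO (adjusted p = 0.000705) and -0.32 ± 0.09 in WT (adjusted p = 0.0127), in edgeR's quasi-likelihood fit. Ctsh, an aminopeptidase among the cathepsins, had values of -0.22 ± 0.10 in KO and -0.29 ± 0.10 in WT that did not pass, with adjusted p of 0.139 and 0.0549. Ctsh did pass in 2 of 14 alternative fits in KO and in 5 of 14 in WT. Both counts include the edgeR fit with the culture number as a block, where adjusted p was 0.00155 in KO and 0.000171 in WT. An M0 and an M2 library of a genotype share that number in the labels, which do not say what it marks.

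Ctsd, the highest of the 39 per gene length (GETMM) in unstimulated cells, did not pass the test (chr7:142375911-142388038). Its lowest, median and highest libraries had 15179, 16567 and 18701 CPM in KO M2, against 12642, 14958 and 16253 CPM in KO M0. In WT M2 they had 15482, 17257 and 19909 CPM, against 11882, 16334 and 17942 CPM in WT M0. The groups overlapped in both genotypes, and the log2 fold change was 0.17 ± 0.09 in KO (adjusted p = 0.171) and 0.17 ± 0.09 in WT (adjusted p = 0.221). Gm49369, on the same strand, shares 34.4% of the exonic length of Ctsd and had 0 to 7437 counts. With the counts of both summed, the values were 0.17 in KO (adjusted p = 0.123) and 0.15 in WT (adjusted p = 0.190), and neither passed. Ctsb, a cysteine peptidase of similar abundance, had log2 fold changes of 0.12 ± 0.08 in KO and 0.10 ± 0.08 in WT and was not called.

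**Figure D4:**
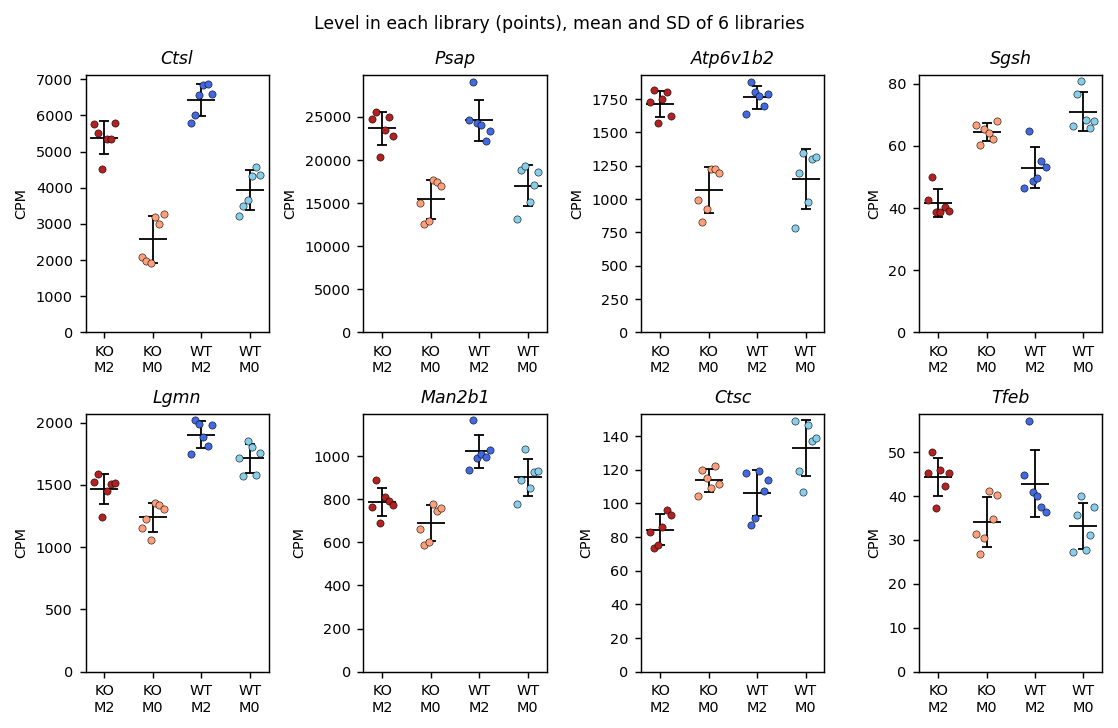
CPM of 8 lysosomal genes in each library; points are libraries of KO M2, KO M0, WT M2 and WT M0, lines are the mean and SD of 6. Ctsl, Psap and Atp6v1b2 are higher in M2 than in M0 and Sgsh and Ctsc lower, and the KO points of Lgmn and Man2b1 lie below the WT points of the same state.

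Of the glycosidases and the sulphatase, 4 of 10 were higher with IL-4 and 1 was lower in KO, and 2 of 10 were higher and 1 was lower in WT. The lower gene was Sgsh, the N-sulphoglucosamine sulphohydrolase of heparan sulphate breakdown (chr11:119343425-119355536). Its lowest, median and highest libraries had 38.6, 39.6 and 50.1 CPM in KO M2, against 60.3, 64.9 and 68.1 CPM in KO M0. In WT M2 they had 46.4, 51.5 and 64.8 CPM, against 65.6, 68.2 and 80.8 CPM in WT M0. No treated library reached the lowest unstimulated one in either genotype. Sgsh had the largest fall of the 39, with a log2 fold change of -0.63 ± 0.08 in KO (adjusted p = 7.36e-07) and -0.42 ± 0.08 in WT (adjusted p = 0.000295), in edgeR's quasi-likelihood fit. Naglu, which acts in the same breakdown of heparan sulphate, moved the opposite way, by 0.38 ± 0.12 in KO and 0.36 ± 0.12 in WT. The Naglu call was lost in KO without KO M2 replicate 2 (adjusted p = 0.0631), and in WT without WT M0 replicate 1 or 4 or WT M2 replicate 2, with adjusted p up to 0.0903.

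Gla, the alpha-galactosidase that trims glycolipids, rose by 0.15 ± 0.04 in KO and 0.12 ± 0.04 in WT, the smallest called change of the 39. The WT call was lost without any one of WT M0 replicates 1, 4 and 5 and WT M2 replicates 3 to 6, with adjusted p up to 0.0859. Glb1, the lysosomal beta-galactosidase, and Gaa, which breaks down glycogen, were called in KO, with log2 fold changes of 0.26 ± 0.09 and 0.31 ± 0.11. In WT their values were 0.21 ± 0.09 and 0.24 ± 0.11, and did not pass. The Glb1 call in KO was lost without any one of KO M0 replicates 1, 4, 5 and 6 and KO M2 replicates 1 and 2, and the Gaa call without any one of KO M0 replicates 1 to 3 and KO M2 replicates 1 and 2. Adjusted p then reached 0.120 for Glb1 and 0.102 for Gaa. Hexa, Gusb, Manba, Man2b1 and Neu1, which remove other sugars, were not called in either genotype, with log2 fold changes between -0.09 and 0.19.

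Of the 7 genes of lipid handling, Psap, Npc1 and Npc2 were higher with IL-4 in both genotypes and Ppt1 was lower in both. Psap (chr10:60277627-60302597) had 20402, 24086 and 25618 CPM in its lowest, median and highest KO M2 libraries, against 12592, 15964 and 17685 CPM in KO M0. It had 22199, 24201 and 29096 CPM in WT M2, against 13166, 17841 and 19306 CPM in WT M0. The treated and unstimulated libraries did not overlap in either genotype. On the log2 scale, the fold change was 0.62 ± 0.10 in KO (adjusted p = 3.01e-05) and 0.53 ± 0.10 in WT (adjusted p = 0.000321), in edgeR's quasi-likelihood fit. Npc1 and Npc2, which hand cholesterol out of the lysosome, rose by 0.47 ± 0.05 and 0.30 ± 0.08 in KO, and by 0.37 ± 0.05 and 0.32 ± 0.08 in WT. Npc1 had the smallest adjusted p of the 39 in both genotypes, 3.87e-08 in KO and 4.77e-06 in WT.

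Ppt1, a thioesterase that removes palmitate from proteins (chr4:122836242-122859175), had 78.6, 81.8 and 87.3 CPM in its lowest, median and highest KO M2 libraries, against 84.6, 92.0 and 105 CPM in KO M0. It had 82.6, 86.6 and 90.1 CPM in WT M2, against 94.8, 100.05 and 109.7 CPM in WT M0. The groups overlapped in KO and did not in WT. Its log2 fold change was -0.19 ± 0.05 in KO (adjusted p = 0.00869) and -0.22 ± 0.05 in WT (adjusted p = 0.00316), in edgeR's quasi-likelihood fit. Lipa, the acid lipase, Asah1, acid ceramidase, and Smpd1 were not called in either genotype, with values between -0.03 and 0.15.

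Of the 5 membrane proteins, Lamp1 alone was called. Lamp1 (chr8:13159161-13175338) had 2182, 2261 and 2398 CPM in its lowest, median and highest KO M2 libraries, against 1853, 1951 and 2040.3 CPM in KO M0, without overlap. It had 2329, 2359 and 2512 CPM in WT M2, against 1974, 2135 and 2449 CPM in WT M0, with overlap. The fitted log2 fold change was 0.22 ± 0.05 in KO (adjusted p = 0.00123) and 0.15 ± 0.05 in WT (adjusted p = 0.0340), in edgeR's quasi-likelihood fit. The WT call was lost without any one of WT M0 replicates 3 to 6 and WT M2 replicates 1 and 3, with adjusted p up to 0.0848. Lamp2, which is needed for autophagosome turnover, had values of 0.03 ± 0.08 in KO and -0.06 ± 0.08 in WT. Cd68, a macrophage sialomucin of the lysosomal membrane, had 0.06 ± 0.09 in KO and -0.09 ± 0.09 in WT. Mcoln1, the calcium channel, had 0.14 ± 0.07 in KO and 0.00 ± 0.07 in WT. Scarb2, which carries glucocerebrosidase to the lysosome, had -0.16 ± 0.06 in KO and -0.15 ± 0.06 in WT, and in WT every treated library lay below every unstimulated one, but neither value passed the test. In KO, Scarb2 did pass as lower in 7 of 14 alternative fits, DESeq2 and limma among them, and in 4 of 12 fits that each left out 1 library, with adjusted p from 0.00431 to 0.488 over all of these.

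Tfeb (chr17:47737030-47792419) had 37.3, 45.3 and 49.9 CPM in its lowest, median and highest KO M2 libraries, against 26.8, 33.1 and 41.2 CPM in KO M0. It had 36.4, 40.5 and 57.2 CPM in WT M2, against 27.2, 33.4 and 39.9 CPM in WT M0. The groups overlapped in both genotypes. The log2 fold change was 0.38 ± 0.12 in KO (adjusted p = 0.0205) and 0.37 ± 0.12 in WT (adjusted p = 0.0329), in edgeR's quasi-likelihood fit. The call was lost in KO without KO M0 replicate 2 or 3 or KO M2 replicate 2, with adjusted p up to 0.0595. In WT it was lost without any one of WT M0 replicates 1, 4 and 5 and WT M2 replicates 1 and 2, with adjusted p up to 0.110. These are RNA levels; the activity of Tfeb is set largely by its phosphorylation and its place in the cell, which were not measured.

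The proton pump genes were called more often than any other role of more than 1 gene. All 6 were higher with IL-4 in KO and 5 of 6 in WT, with median log2 fold changes of 0.34 in KO and 0.29 in WT. Atp6v1b2, the B subunit of the cytosolic catalytic sector (chr8:69088646-69113711), had 1568, 1737 and 1819 CPM in its lowest, median and highest KO M2 libraries, against 826, 1094 and 1227 CPM in KO M0. It had 1638, 1779 and 1879 CPM in WT M2, against 782, 1247 and 1344 CPM in WT M0. No treated library overlapped with an unstimulated one. On the log2 scale, the fold change was 0.69 ± 0.11 in KO (adjusted p = 2.84e-05) and 0.61 ± 0.11 in WT (adjusted p = 0.000206), in edgeR's quasi-likelihood fit.

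Atp6v1a, the catalytic A subunit (chr16:44085402-44139705), had 1471, 1575 and 1630.5 CPM in its lowest, median and highest KO M2 libraries, against 1205, 1346 and 1426 CPM in KO M0, without overlap. It had 1295, 1516 and 1603 CPM in WT M2, against 1132, 1313 and 1393 CPM in WT M0, with overlap. Its log2 fold change was 0.24 ± 0.06 in KO (adjusted p = 0.00394) and 0.22 ± 0.06 in WT (adjusted p = 0.0107), in edgeR's quasi-likelihood fit. Atp6v1h, a regulatory subunit, rose by 0.42 ± 0.08 in KO and 0.44 ± 0.08 in WT. Atp6v0c, which forms the ring in the membrane, rose by 0.44 ± 0.09 in KO and 0.31 ± 0.09 in WT, and Atp6v0d1, which joins the sectors, by 0.27 ± 0.08 in KO and 0.28 ± 0.08 in WT. Atp6v0c has processed pseudogenes with which reads could be shared. Atp6ap1, an accessory protein of the pump, had 0.22 ± 0.06 in KO and 0.15 ± 0.06 in WT, and passed in KO (adjusted p = 0.00894) but not in WT (adjusted p = 0.106).

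Other genes of the same pathways, which are not among the 39, were counted from lists in the same fit. Over all genes tested, 12.2% were higher and 11.4% lower with IL-4 in KO, and 8.49% higher and 7.95% lower in WT. Of 15 tested other pump subunits, 9 were higher and 0 lower with IL-4 in KO, and 7 were higher and 0 lower in WT. They included Atp6v0d2, the d subunit of osteoclasts and macrophages, at 1.02 ± 0.13 in KO and 0.58 ± 0.13 in WT, and Atp6v0a1, at 0.81 ± 0.06 in KO and 0.61 ± 0.06 in WT. Of 30 other lysosomal hydrolases and activators, 12 were higher and 0 lower in KO, and 8 were higher and 0 lower in WT. Acp5, the tartrate-resistant acid phosphatase, had the largest rise of these, 1.43 ± 0.27 in KO and 1.16 ± 0.26 in WT, and Ctsk, cathepsin K, followed with 0.78 ± 0.11 in KO and 0.61 ± 0.11 in WT. Of 19 other membrane proteins and transporters, 9 were higher and 1 lower in each genotype.

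Acp5, Ctsk and Atp6v0d2 are also markers of osteoclasts, which form from the same precursors. Of 8 tested osteoclast markers, 6 were higher and 0 lower with IL-4 in each genotype, and the summed level of all 10, as CPM without TMM scaling, averaged 2589.7 CPM in KO M2 and 1370 CPM in KO M0, and 2543 CPM in WT M2 and 1677 CPM in WT M0. Libraries ranged from 2249 to 3003 CPM in KO M2 and from 1111 to 1633 CPM in KO M0, and from 2273 to 2918 CPM in WT M2 and from 1413 to 2098 CPM in WT M0. Most of that sum was Atp6v0d2, which averaged 2272 CPM in KO M2 and 1123 CPM in KO M0, and 2227 CPM in WT M2 and 1491 CPM in WT M0. Calcr, the calcitonin receptor that defines mature osteoclasts, had 0 counts in KO M2, 0 in KO M0, 1 in WT M2 and 0 in WT M0. Oscar, an osteoclast-associated receptor, had 3 counts in KO M2, 6 in KO M0, 1 in WT M2 and 4 in WT M0. Itgb3 averaged 289 CPM in KO M2 and 84.5 CPM in KO M0, and 197 CPM in WT M2 and 73.7 CPM in WT M0. Dcstamp averaged 13.3 CPM in KO M2 and 7.36 CPM in KO M0, and 4.43 CPM in WT M2 and 2.03 CPM in WT M0. Ocstamp averaged 3.06 CPM in KO M2 and 0.404 CPM in KO M0, and 1.08 CPM in WT M2 and 0.234 CPM in WT M0. For Nfatc1 and Mmp9 the M2 mean lay below the M0 mean in each genotype. Of the 10 macrophage markers, 1 was higher and 3 were lower with IL-4 in each genotype. The shares over all genes are those given above. The part of any cell type in the IL-4 response was not tested.

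The inhibitors and regulators around the hydrolases were also counted, beside the same shares over all genes, 12.2% higher and 11.4% lower in KO. In WT these shares were 8.49% and 7.95%. Of 6 tested cystatins and other cathepsin inhibitors, 4 were higher and 0 lower with IL-4 in each genotype. Cst7, cystatin F, rose by 1.38 ± 0.30 in KO and 1.00 ± 0.32 in WT, and Cst3, cystatin C, by 0.42 ± 0.11 in KO and 0.39 ± 0.11 in WT. Of 19 genes of transcription and nutrient control, 4 were higher and 1 lower in KO, and 5 were higher and 1 lower in WT. Mitf and Tfec, relatives of Tfeb, rose by 0.73 ± 0.10 and 0.71 ± 0.08 in KO, and by 0.53 ± 0.10 and 0.56 ± 0.08 in WT. Of 16 sorting genes, 3 were higher and 1 lower in KO, and 1 was higher and 0 lower in WT. M6pr, a mannose 6-phosphate receptor, was higher in both, at 0.20 ± 0.04 in KO and 0.13 ± 0.04 in WT. Of 22 autophagy genes, 4 were higher and 1 lower in KO, and 0 were higher and 2 lower in WT. Ulk2, a kinase that starts autophagy, was lower in both, at -0.36 ± 0.06 in KO and -0.27 ± 0.06 in WT. The counts of sorting and autophagy genes lay near the shares over all genes and are given as descriptions.

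Between genotypes, few lysosomal genes differed, and every difference called in the fit of all 24 libraries was lower in KO. With IL-4, 0 of the 39 were higher and 4 were lower in KO, where 1.51% of all genes were higher and 3.09% were lower. Without IL-4, 0 were higher and 4 were lower in KO, where 1.10% of all genes were higher and 3.42% were lower. At an unadjusted p below 0.05, 0 genes were higher and 7 lower with IL-4, and 0 were higher and 13 lower without. That is 17.9% of the 39 with IL-4 beside 13.2% of all genes in either direction, and 33.3% without IL-4 beside 15.1% of all genes. DESeq2 also called 0 genes higher in either state. The median log2 fold change of the 39 was -0.04 with IL-4 and -0.09 without, beside 0.01 and -0.01 over all genes. Without IL-4 the median of the 39 differed in sign between sets of libraries: it was -0.16 in replicates 1 to 3 alone, with 6 of 39 values above 0, and 0.01 in replicates 4 to 6 alone, with 21 of 39 above 0. KO and WT groups did not overlap for 2 of the 39 with IL-4 and 3 without, all lower in KO, where 3.63% and 3.48% of all genes did not overlap. Without the 3 libraries numbered apart, 4 were lower with IL-4 and 6 without, the 2 added genes being Ctsc at -0.28 and Asah1 at -0.20. Of all 12797 genes, 378 were then lower in KO with IL-4 and 562 without.

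**Figure D5:**
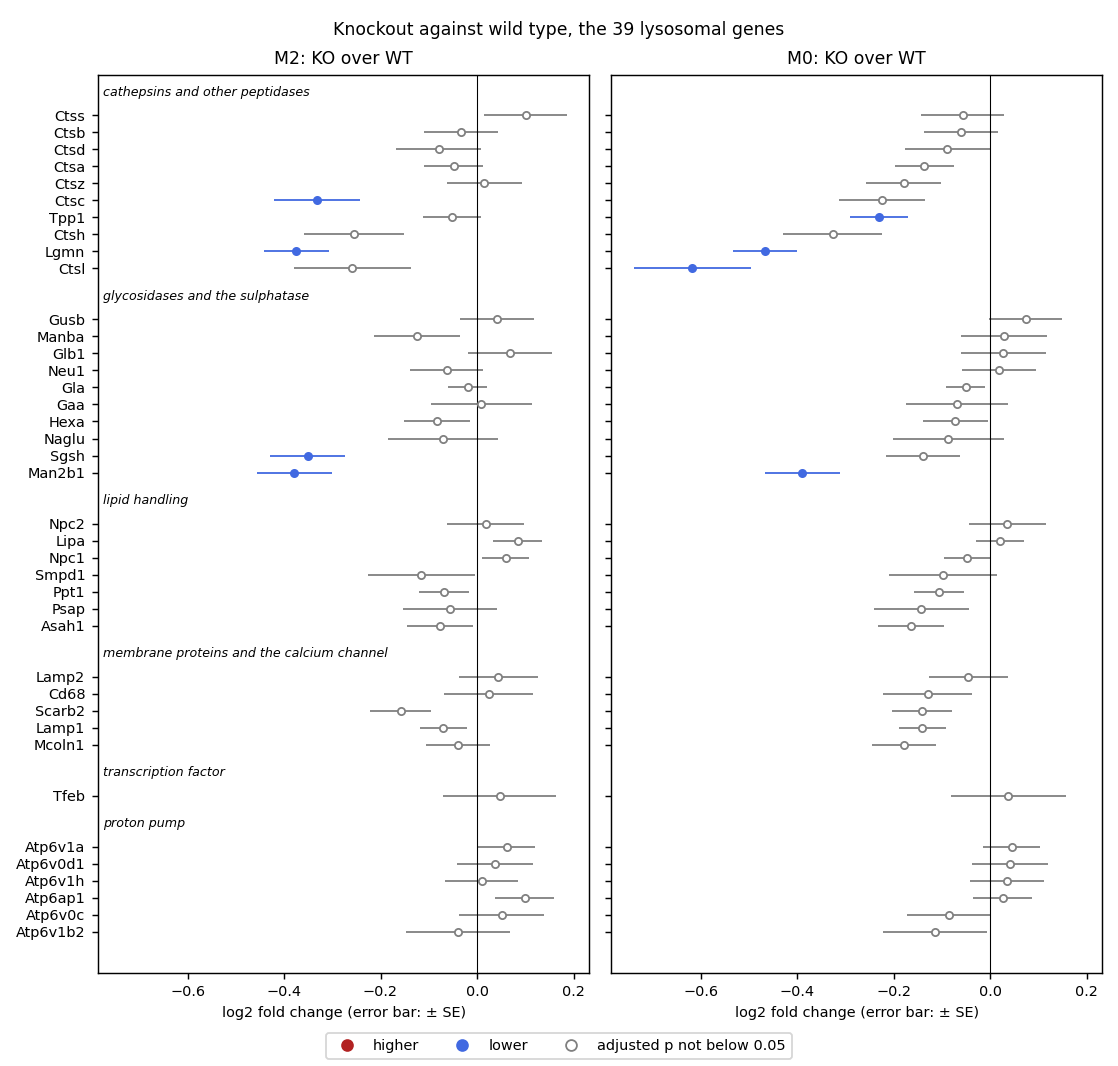
Log2 fold change (± SE) of KO over WT for each of the 39 lysosomal genes, with IL-4 (left) and without (right), grouped by role; filled blue points passed the test as lower in KO. Lgmn and Man2b1 are filled in both panels, Ctsl and Tpp1 only without IL-4, and Sgsh and Ctsc only with IL-4.

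Lgmn and Man2b1 were lower in KO in both states. Lgmn (chr12:102394084-102439813) had 1240.2, 1511 and 1585 CPM in its lowest, median and highest KO M2 libraries, against 1746, 1932 and 2023 CPM in WT M2. It had 1059, 1270.1 and 1355 CPM in KO M0, against 1570.0, 1738 and 1853 CPM in WT M0. No KO library reached the lowest WT library of the same state. The fitted log2 fold change was -0.37 ± 0.07 with IL-4 (adjusted p = 0.000491) and -0.47 ± 0.07 without (adjusted p = 2.35e-05), in edgeR's quasi-likelihood fit.

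Man2b1, the lysosomal alpha-mannosidase (chr8:85083270-85098282), had 688, 783 and 887 CPM in its lowest, median and highest KO M2 libraries, against 936, 1003 and 1167 CPM in WT M2. It had 589.8, 702 and 777 CPM in KO M0, against 779.5, 909 and 1031 CPM in WT M0. The genotypes did not overlap in either state, by a narrow margin without IL-4. The log2 fold change was -0.38 ± 0.08 with IL-4 (adjusted p = 0.00235) and -0.39 ± 0.08 without (adjusted p = 0.00179), in edgeR's quasi-likelihood fit.

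Ctsl was lower in KO without IL-4, at -0.62 ± 0.12 (adjusted p = 0.00168), and with IL-4 its value was -0.26 ± 0.12 (adjusted p = 0.351). With IL-4 it did pass as lower in 2 of 13 alternative fits, that of only the groups compared and that of replicates 4 to 6. It passed in 0 of 12 fits that each left out 1 library. Its libraries, given above, overlapped slightly between KO M0 and WT M0, where the highest KO library had 3275 CPM and the lowest WT library 3228 CPM. Tpp1 was lower in KO without IL-4, at -0.23 ± 0.06 (adjusted p = 0.0233), with no overlap of the groups, and had -0.05 ± 0.06 with IL-4. The Tpp1 call was lost without WT M0 replicate 1 or 4 or KO M0 replicate 1 or 3, with adjusted p up to 0.0803. With IL-4, Sgsh was lower in KO at -0.35 ± 0.08 (adjusted p = 0.00537) and Ctsc at -0.33 ± 0.09 (adjusted p = 0.0276), in edgeR's quasi-likelihood fit. Their values without IL-4 were -0.14 and -0.22 and did not pass. The Ctsc call was lost without any one of WT M2 replicates 1, 4, 5 and 6 and KO M2 replicates 1 to 3, with adjusted p up to 0.0844. Within replicates 1 to 3 alone, 0 of the 39 were lower with IL-4 and 4 without, where 231 and 287 of all 12797 genes were lower. Within replicates 4 to 6 alone, 5 were lower with IL-4 and 4 without, where 590 and 520 of all genes were lower. In replicates 4 to 6 alone, 1 gene of the 39, Ctss, was higher in KO with IL-4 (adjusted p = 0.000348, edgeR's quasi-likelihood fit). Of all genes, 469 were higher there.

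No pump gene was called between genotypes. Their log2 fold changes of KO over WT ran from -0.04 to 0.10 with IL-4 and from -0.11 to 0.04 without. Tfeb had 0.05 ± 0.12 with IL-4 and 0.04 ± 0.12 without, and none of the 5 membrane proteins or 7 lipid genes was called in either state. Ctsd had -0.08 ± 0.09 with IL-4 and -0.09 ± 0.09 without. Among other genes of the pathways, Sort1, the sorting receptor sortilin, was lower in KO at -0.46 ± 0.11 with IL-4 and -0.57 ± 0.11 without. Serpina3g, a serpin that inhibits cathepsins, was lower at -1.44 ± 0.27 with IL-4 and -1.51 ± 0.31 without. Hgsnat, the acetyltransferase of heparan sulphate breakdown, was lower at -0.65 ± 0.18 with IL-4 (adjusted p = 0.0374) and had -0.58 ± 0.18 without (adjusted p = 0.0790).

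Markers of stromal cells and fibroblasts moved with the genotype. All 13 tested of the 15 were lower in KO in both states, and the summed level of the 15, as CPM without TMM scaling, averaged 15.1 CPM (range 9.86 to 23.6) in KO M2 against 150 CPM (range 137 to 183) in WT M2. It averaged 16.2 CPM (range 10.1 to 32.1) in KO M0 against 178 CPM (range 146 to 214) in WT M0. Lum was at 0 in KO M0. Of 8 tested osteoclast markers, 3 were higher and 0 lower in KO with IL-4, and 1 was higher and 0 lower without. Of 10 macrophage markers, 1 was higher and 2 were lower in KO in each state, and the ranges of both sums are given above. Fibroblasts also express lysosomal hydrolases, and the part of any of these cells in the lower levels of Lgmn, Man2b1, Ctsl, Tpp1, Sgsh and Ctsc in KO was not tested.

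The IL-4 response itself was compared between genotypes by an interaction term. No gene of the 39 and none of the 12797 tested passed (0%), with an adjusted p of 0.9998 for each of the 39. At an unadjusted p below 0.05, 2 of the 39 passed, Ctsl and Tpp1, among 390 of all genes. DESeq2 called 0 of the 39 and 1 of all genes. For Ctsl the difference of log2 fold changes, KO minus WT, was 0.36 ± 0.17, and for Tpp1 it was 0.18 ± 0.09. Over the 39 genes the differences ran from -0.21 for Sgsh to 0.36 for Ctsl. The genes called with IL-4 in KO and not in WT (Ctsa, Lgmn, Glb1, Gaa and Atp6ap1) were therefore not shown to respond differently.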

How the data were processed

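For 24 RNA-seq libraries, the authors deposited rounded expected counts and a GETMM signal that adjusts for gene length and library. Bowtie2 2.3.4.1, RSEM 1.3.0, CASAVA 2.8.0 and edgeR are listed, per the submitters' processing notes, beside the build mm10, without order or settings. Per the labels' protocols, total RNA was made into libraries with a Kapa Hyperprep kit and read as 40 bp single ends, and strand is not mentioned. Each deposited GETMM signal equalled the expected count times 1 factor for the gene and 1 for the library, checked on 9799 genes.

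Groups were taken from the titles in the labels. The deposited counts were fitted with edgeR 4.0.16 (quasi-likelihood test, robust, TMM scaling) in R 4.3.3, in 1 model of the 4 groups with 6 libraries each. Genes were kept by filterByExpr with a minimum count of 10, which left 12797 of 54429 genes and 99.8% of the counts. P-values were adjusted over all kept genes by the Benjamini-Hochberg method, with a threshold of 0.05 and no fold limit. A fold change is M2 over M0 or KO over WT, and its error is the SE of the fit. CPM values were computed by edgeR after TMM scaling. DESeq2 1.42.0 and limma 3.58.1, on log2(GETMM + 1) or log2(GETMM + 0.1), were run as alternatives, beside other scalings, filters and sets of libraries. The fit was tested on simulated data.

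The 39 genes, the related lists and the markers were chosen with earlier results of these data known, so no list was tested and none is independent evidence. The lowest, median and highest libraries are given for the 3 genes with the largest called rise and fall in each comparison and for Tfeb, Lamp1, Ctsd and Atp6v1a. Up to 3 called genes with the largest changes are named from each related list, except for a gene that is not reported here. Gene coordinates are from GENCODE M21 on mm10. Gm49369 was summed with Ctsd after the data were seen.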

Additional observations from a re-analysis of the deposited data

Results flagged for a closer look

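In each group of 6 libraries, a library was singled out when its gap to the nearest other library passed Dixon's 95% critical share of the range of the group. Chance singles out about 1 in 20 groups. Of 156 groups (39 genes in 4 groups), 20 had such a library, and 16 of these fell in the 3 libraries numbered apart in the labels. These values are CPM, and the part of the library numbering in them was not tested.

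In WT M2, replicate 2 stood apart for 10 genes. It was highest for Gaa at 128, Gusb at 837, Neu1 at 93.8, Npc2 at 1424, Psap at 29096, Atp6v0c at 1206, Atp6v0d1 at 256 and Atp6ap1 at 537. It was lowest for Lamp2 at 610.0 and Atp6v1a at 1295. In KO M2, replicate 2 stood apart for 5 genes, being highest for Ctsa at 1418, Sgsh at 50.1, Smpd1 at 38.9 and Cd68 at 2092, and lowest for Lamp2 at 668. In WT M0, replicate 3 was highest for Neu1 at 86.0.

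The remaining 4 values came from 4 other libraries. Ctsl was lowest in KO M2 replicate 3 at 4531, Hexa was lowest in KO M0 replicate 3 at 925, Cd68 in KO M0 replicate 2 was highest at 2031, and Mcoln1 in KO M0 replicate 4 was highest at 47.3.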

How the results depend on the processing

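Over the 5 comparisons, no single-gene value that passed the test in either of 2 fits set side by side changed sign. Values that passed in neither did so in 141 of 2184 cases when 1 library was left out and in 102 of 1878 under other alternatives. Higher genes with IL-4 in WT numbered 10 when only the groups compared were fitted, and lower genes with IL-4 in KO numbered 5 with the culture number as a replicate block, a number in the labels that an M0 and an M2 library of the same genotype share. In replicates 1 to 3 alone, higher genes with IL-4 numbered 10 in KO and 6 in WT, lower genes with IL-4 in WT numbered 0, and genes lower in KO with IL-4 numbered 0. In replicates 4 to 6 alone, 12 genes were higher and 5 lower with IL-4 in KO, and 1 gene was higher in KO with IL-4. Leaving out 1 library at a time gave 16 to 22 higher and 3 to 5 lower with IL-4 in KO (5 without KO M0 replicate 3), 11 to 16 higher and 3 to 4 lower with IL-4 in WT, and 3 to 5 lower in KO without IL-4 and 3 to 4 with IL-4. With no count filter, 16 were higher and 2 lower with IL-4 in KO and 11 higher and 2 lower in WT. DESeq2 gave 21 higher and 4 lower in KO and 16 higher and 4 lower in WT. Among leave-one-out values of single genes, 2737 kept their side of the threshold, 59 lost and 12 gained a call. Among other alternatives, 2504 kept it, 85 lost and 29 gained a call. The causes were not tested.

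The labels do not say what the replicate or culture numbers mark, and the numbers were not shown to pair libraries. The correlation was over 0.1 in 4 of 6 pairs with IL-4 in each genotype, and 4 of 6 libraries in KO and 2 of 6 in WT correlated best with their own number. Deviations of same-numbered libraries correlated at -0.047 to 0.313 with IL-4 in KO, -0.0089 to 0.395 with IL-4 in WT, -0.081 to 0.522 between genotypes with IL-4 and -0.342 to 0.162 without. With the replicate block, 21 genes were higher and 4 lower with IL-4 in KO, 15 higher and 4 lower in WT, and 4 were lower in KO with IL-4 and 5 without. It added Scarb2 with IL-4 in KO and Ctsh with IL-4 in WT and between genotypes without IL-4, and lost Gla in WT. The block by culture number added Ctsh, Man2b1 and Scarb2 in KO and Ctsh and Glb1 in WT, and lost Gla in WT. Over all genes it called 1733 higher and 1713 lower with IL-4 in KO, against 1563 and 1461 without a block. In WT it called 1304 higher and 1318 lower, against 1086 and 1017.

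Counts over all genes that moved by more than 1.5 times were, for genes lower with IL-4 in WT (1017), 610 with no count filter, 651 by limma with no filter and 333 in replicates 1 to 3, where 527 were higher (1086). For IL-4 in KO, replicates 1 to 3 gave 794 higher and 675 lower (1563 and 1461). For genes higher in KO without IL-4 (141), DESeq2 gave 236, replicates 4 to 6 gave 433 and leaving out the 3 libraries numbered apart gave 277, while replicates 1 to 3 gave 287 lower (438). With IL-4 (193 higher, 395 lower in KO), replicates 1 to 3 gave 78 and 231, replicates 4 to 6 gave 469 higher and limma with no filter 127 higher. The difference of responses (0) gave 1 gene by DESeq2, 2 with the culture number as a block, 2 higher and 1 lower by limma, and 17 higher and 4 lower in replicates 4 to 6. The part of depth in the results of the lowest genes, such as Smpd1 and Tfeb, was not tested.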
